A study of Mus musculus with 10 samples.

Results

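The brush border is the carpet of microvilli on the surface of absorptive intestinal cells, and the genes described here encode its digestive enzymes, its transporters and the proteins that build the microvillus, together with the differentiation markers Krt20 and Clca4a. The list held 34 genes. Members were matched by their gene symbol in the array's annotation, with 1 probe set kept per gene, that with the highest mean over all 10 arrays. Of the 34, 33 were measured, among 18820 genes tested. The one without a value was Slc3a1, which was present only on probe sets shared with another gene.

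The samples were total RNA of epithelial cells sorted from mouse intestine and hybridised to Affymetrix Mouse Gene ST 1.1 arrays. All carried 2 reporters: EGFP with CreERT2 at the Lgr5 gene (Lgr5-EGFP-ires-CreERT2), a marker of crypt base stem cells, and TagRFP joined to the end of the Ki67 protein at its own gene (Ki67-TagRFP), which reports cycling cells. Sorting on both colours gave the groups Lgr5hi Ki67hi (EGFP high, RFP high; 2 arrays), Lgr5hi Ki67low (EGFP high, RFP low; 2 arrays), Lgr5med Ki67hi (EGFP medium, RFP high; 4 arrays) and Lgr5med Ki67low (EGFP medium, RFP low; 2 arrays). The labels state neither the strain background nor the age and number of the mice, nor whether a replicate was 1 mouse or a pool. The p-values below therefore measure the spread between these arrays, which may be technical. No EGFP-negative or villus sample was analysed here.

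Stem cells at the crypt base renew the intestinal lining, and their daughters divide in the crypt before they move up to the villus. Absorptive daughters assemble a brush border on the way: bundled actin filaments form the microvilli, tip-link cadherins hold them in rows, and disaccharidases, peptidases and transporters fill the membrane. Transcripts of these genes are therefore used as markers of how far the absorptive lineage has matured. In sorted bulk samples, a lower level can come from fewer cells of a type or from less RNA per cell, and these cannot be told apart.

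Values are log2 expression as deposited, so 1 unit is a 2-fold difference, and a level can be compared between arrays but not between genes. The median level of all genes lay between 4.97 and 5.13 on the 10 arrays. Lgr5 itself read 9.39 and 9.38 in Lgr5hi Ki67hi cells, 10.02 and 10.43 in Lgr5hi Ki67low cells, 7.39, 7.56, 7.29 and 7.32 in Lgr5med Ki67hi cells, and 8.76 and 8.41 in Lgr5med Ki67low cells. The order of the 4 Lgr5hi arrays above the 6 Lgr5med arrays follows the sort. Mki67, the gene of the other reporter, read 10.19 and 10.18 in Lgr5hi Ki67hi cells, 10.06 and 10.10 in Lgr5hi Ki67low cells, 10.04, 10.18, 10.27 and 9.83 in Lgr5med Ki67hi cells, and 9.75 and 9.83 in Lgr5med Ki67low cells. Its Ki67low arrays were lower than the Ki67hi arrays within Lgr5hi cells, met them at 9.83 within Lgr5med cells, and overlapped them over all 10 arrays.

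Several families of transcription factors that act in absorptive cells are known for short DNA motifs, and the promoters of the members were searched for 5 of these: the 250 bases before the start of the gene, from RefSeq on GRCm38.p6, which held 28 of the 33 measured members. Promoters of 6 members are shown, those of Cdhr5, Npc1l1, Slc9a3 and Alpi because these genes were among the members lower in Lgr5hi cells, and those of Lct and Sis because they encode the classical disaccharidases. Each is written 5′ to 3′ on the strand of its gene, and capitals mark a motif match on either strand.
Cdhr5 (chr7:141276787-141277036, minus strand): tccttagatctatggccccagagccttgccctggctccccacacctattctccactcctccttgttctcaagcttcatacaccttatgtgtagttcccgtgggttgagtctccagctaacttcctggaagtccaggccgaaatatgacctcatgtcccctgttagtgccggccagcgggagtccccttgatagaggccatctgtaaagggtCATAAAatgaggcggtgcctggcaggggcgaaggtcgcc
Npc1l1 (chr11:6230246-6230495, minus strand): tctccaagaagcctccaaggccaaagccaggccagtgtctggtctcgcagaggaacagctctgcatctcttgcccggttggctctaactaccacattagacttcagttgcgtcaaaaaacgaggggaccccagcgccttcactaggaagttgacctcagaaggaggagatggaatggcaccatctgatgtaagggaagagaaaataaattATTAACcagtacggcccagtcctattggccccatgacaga
Slc9a3 (chr13:74121163-74121412, plus strand): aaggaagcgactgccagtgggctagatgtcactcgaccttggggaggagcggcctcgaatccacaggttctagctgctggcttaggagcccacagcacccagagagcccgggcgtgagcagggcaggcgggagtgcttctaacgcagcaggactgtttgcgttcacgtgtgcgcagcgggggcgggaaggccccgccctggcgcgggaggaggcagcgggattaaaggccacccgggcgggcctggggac
Alpi (chr1:87101607-87101856, minus strand): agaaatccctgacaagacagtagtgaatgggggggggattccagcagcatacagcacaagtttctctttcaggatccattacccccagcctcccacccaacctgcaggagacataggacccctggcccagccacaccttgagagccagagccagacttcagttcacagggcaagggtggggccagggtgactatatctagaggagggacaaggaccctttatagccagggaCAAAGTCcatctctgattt
Lct (chr1:128328319-128328568, minus strand): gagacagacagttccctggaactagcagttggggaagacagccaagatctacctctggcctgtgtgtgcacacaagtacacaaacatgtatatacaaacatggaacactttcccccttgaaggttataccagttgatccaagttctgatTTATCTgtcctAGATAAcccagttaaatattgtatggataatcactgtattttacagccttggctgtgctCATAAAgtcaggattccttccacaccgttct
Sis (chr3:72967864-72968113, minus strand): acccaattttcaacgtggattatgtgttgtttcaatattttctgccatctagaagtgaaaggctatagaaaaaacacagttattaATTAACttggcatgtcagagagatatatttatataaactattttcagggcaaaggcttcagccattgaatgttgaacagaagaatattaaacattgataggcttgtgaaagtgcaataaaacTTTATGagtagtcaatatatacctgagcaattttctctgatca

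Positions count the bases from the first letter of a match to the start of the gene. The capitals in the Alpi promoter are the HNF4 motif, CAAAGTC, whose first base lay 19 bases before the start. Those in Npc1l1 are GTTAAT, which is 1 arm of the palindromic HNF1 motif and not the full motif, read on the other strand, 40 bases before the start. Cdhr5 held the CDX motif, TTTATG, at 39 bases, Lct held it at 31 bases and Sis at 43 bases. Lct also held the GATA motif, AGATAA, at 101 and 90 bases, and Sis the HNF1 arm at 165 bases. The Slc9a3 promoter held none of these letters in this window. Over the members, the HNF4 motif was in 4 of 28 promoters (14.3%: Alpi, Treh, Ace and Cdhr2) against 4.33% of the promoters of 27025 genes, and its longer form, CAAAGTCCA, which contains it, in 2 (7.14%: Alpi and Treh) against 0.451%. The GATA motif was in 7 (25.0%: Lct, Mgam, Dpp4, Slc7a9, Abcg5, Abcg8 and Krt20) against 11.4%, the HNF1 arm in 3 (10.7%: Sis, Cdhr2 and Npc1l1) against 7.49%, and the CDX motif in 4 (14.3%: Sis, Lct, Espn and Cdhr5) against 12.4%. Abcg5 and Abcg8 are neighbours on the chromosome, and whether their windows share a GATA match was not checked. A match describes the letters and not a bound site.

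The first comparison asked how the members differed between Lgr5hi and Lgr5med cells, averaged over both Ki67 levels (4 against 6 arrays). Of the 33 members, 9 (27.3%) were lower in Lgr5hi cells and none was higher, by limma with a Benjamini-Hochberg adjusted p below 0.05 and no minimum fold. Across all 18820 genes 5.92% passed in either direction, and 3.52% passed as lower. The 9 were Alpi, Myo1a, Cdhr5, Slc2a5, Slc7a9, Slc13a1, Slc26a6, Slc9a3 and Npc1l1. Of the 33 members, 28 had a difference below 0, against 43.7% of all genes, and the median difference was -0.46 for the members against 0.02 for all genes. At an unadjusted p below 0.05, 22 of the 33 were lower, against 10.1% of all genes. Markers of some other cell types were lower in Lgr5hi cells in the same comparison. Of these, 8 of 10 enteroendocrine, 7 of 8 tuft and 5 of 7 goblet markers passed, with median differences of -1.09, -1.29 and -0.55. Of 5 Paneth, 8 lymphocyte and 5 macrophage and dendritic markers none passed, with medians of 0.04, -0.13 and 0.11. The part of any of these cell types in the members' differences was not tested. The plot of every member on every array shows the low Lgr5hi arrays and also how unevenly the Lgr5med arrays read.

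**Figure D1:**
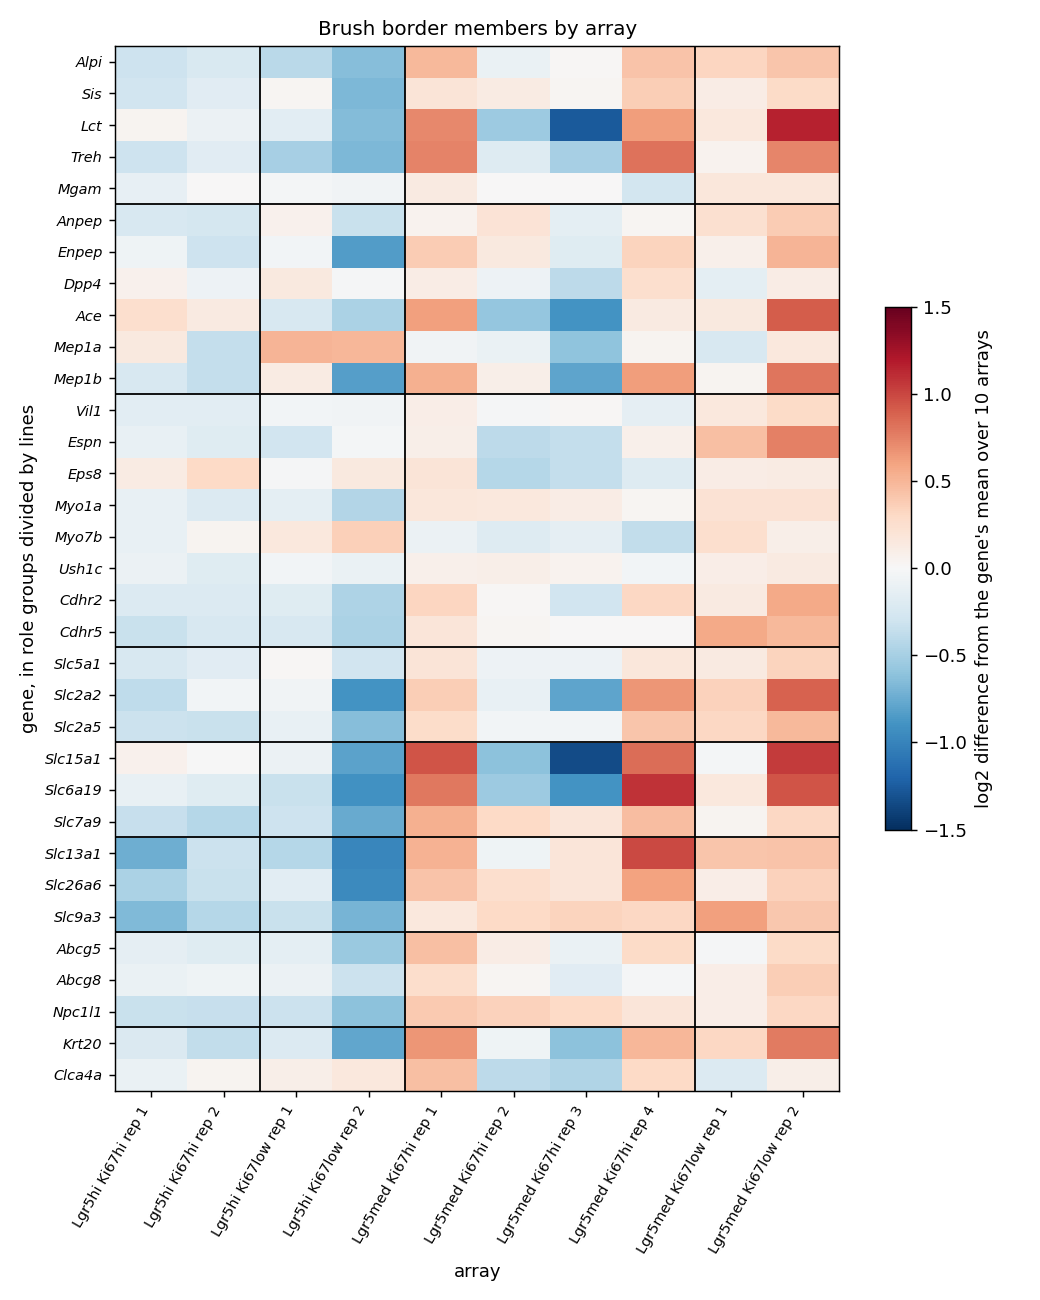
Each row is a brush border gene, in its role group, and each column an array; colour is the log2 difference from the gene's mean over the 10 arrays. The 4 Lgr5hi columns are mostly blue, Lgr5med Ki67low replicate 2 is above the mean for all 33 members, and the 4 Lgr5med Ki67hi arrays differ among themselves.

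All 3 transporters of ions and anions passed, with a median difference of -0.92. Slc9a3 encodes the apical sodium-hydrogen exchanger that drives sodium uptake. It read 8.03 and 8.27 in Lgr5hi Ki67hi cells, 8.37 and 8.0 in Lgr5hi Ki67low cells, 8.86, 9.0, 9.03 and 9.01 in Lgr5med Ki67hi cells, and 9.32 and 9.11 in Lgr5med Ki67low cells. No Lgr5hi array reached the lowest Lgr5med array, and the difference was -0.92 ± 0.094 (SE; adjusted p = 0.00123). Slc13a1, the sodium-sulphate cotransporter, read 7.76 and 8.17 in Lgr5hi Ki67hi cells, 8.06 and 7.51 in Lgr5hi Ki67low cells, 9.02, 8.43, 8.67 and 9.48 in Lgr5med Ki67hi cells, and 8.92 and 8.93 in Lgr5med Ki67low cells. Its groups did not overlap either, the Lgr5med Ki67hi arrays spread over 1.05 units, and the difference of -1.03 ± 0.20 was the largest of any member (adjusted p = 0.0170). For Slc26a6, an apical anion exchanger of chloride, bicarbonate and oxalate, the values were 7.99 and 8.13 in Lgr5hi Ki67hi cells, 8.30 and 7.51 in Lgr5hi Ki67low cells, 8.90, 8.72, 8.65 and 9.06 in Lgr5med Ki67hi cells, and 8.57 and 8.82 in Lgr5med Ki67low cells. Lgr5hi Ki67low replicate 2 was the lowest array by a wide margin, and the difference was -0.78 ± 0.15 (adjusted p = 0.0165).

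Among the transporters of sugars, peptides and amino acids, 2 of 6 measured members passed. Slc7a9 is the light chain of a cystine and basic amino acid transporter whose heavy chain is Slc3a1, the member without a value. Slc7a9 read 7.68 and 7.59 in Lgr5hi Ki67hi cells, 7.71 and 7.27 in Lgr5hi Ki67low cells, 8.55, 8.31, 8.20 and 8.48 in Lgr5med Ki67hi cells, and 8.06 and 8.34 in Lgr5med Ki67low cells. The highest Lgr5hi array lay below the lowest Lgr5med array, and the difference was -0.73 ± 0.11 (adjusted p = 0.00582). Slc2a5, the fructose transporter, read 6.86 and 6.84 in Lgr5hi Ki67hi cells, 7.07 and 6.54 in Lgr5hi Ki67low cells, 7.46, 7.14, 7.14 and 7.60 in Lgr5med Ki67hi cells, and 7.49 and 7.67 in Lgr5med Ki67low cells. Lgr5hi Ki67low replicate 1 and the lowest Lgr5med arrays came close without overlapping, and the difference was -0.63 ± 0.13 (adjusted p = 0.0210). The 4 others had differences below 0 that did not pass: -0.31 ± 0.093 for the sodium-glucose cotransporter Slc5a1 (adjusted p = 0.0807), -0.67 ± 0.28 for the glucose transporter Slc2a2 (0.223), -0.71 ± 0.39 for the neutral amino acid transporter Slc6a19 (0.347) and -0.44 ± 0.45 for the peptide transporter Slc15a1 (0.655).

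Of the sterol transporters, Npc1l1, which takes up cholesterol at the apical membrane, passed. It read 9.24 and 9.22 in Lgr5hi Ki67hi cells, 9.25 and 8.95 in Lgr5hi Ki67low cells, 9.96, 9.91, 9.86 and 9.75 in Lgr5med Ki67hi cells, and 9.66 and 9.87 in Lgr5med Ki67low cells. The 4 Lgr5hi arrays lay at or below 9.25 and the 6 Lgr5med arrays at or above 9.66, a difference of -0.65 ± 0.082 (adjusted p = 0.00288). Abcg5 and Abcg8, the partner transporters that return sterols to the lumen, differed by -0.41 ± 0.13 and -0.27 ± 0.10 and did not pass (adjusted p = 0.0900 and 0.153). Abcg5 read 9.52 and 9.48 in Lgr5hi Ki67hi cells, 9.50 and 9.10 in Lgr5hi Ki67low cells, 10.10, 9.76, 9.55 and 9.95 in Lgr5med Ki67hi cells, and 9.64 and 9.94 in Lgr5med Ki67low cells. Its arrays did not overlap between the Lgr5 levels, as in 10 of the 33 members (30.3%) on the lower side, against 3.78% of all genes. The other 9 were those past the threshold. Abcg5 and Abcg8 are neighbours on the chromosome.

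The enzymes followed with a single call, Alpi, the intestinal alkaline phosphatase, which detoxifies bacterial lipopolysaccharide at the brush border. Alpi read 10.17 and 10.25 in Lgr5hi Ki67hi cells, 10.08 and 9.84 in Lgr5hi Ki67low cells, 10.97, 10.38, 10.50 and 10.91 in Lgr5med Ki67hi cells, and 10.81 and 10.90 in Lgr5med Ki67low cells. Lgr5hi arrays lay below all Lgr5med arrays, Lgr5med Ki67hi replicates 2 and 3 were the lowest of that level, and the difference was -0.69 ± 0.13 (adjusted p = 0.0130). The disaccharidases Sis (sucrase-isomaltase), Treh (trehalase), Lct (lactase) and Mgam (maltase-glucoamylase) had differences of -0.46, -0.72, -0.48 and -0.12, none past the threshold (adjusted p = 0.0747, 0.163, 0.547 and 0.483). Sis read 11.28 and 11.40 in Lgr5hi Ki67hi cells, 11.60 and 10.89 in Lgr5hi Ki67low cells, 11.75, 11.69, 11.59 and 11.94 in Lgr5med Ki67hi cells, and 11.68 and 11.85 in Lgr5med Ki67low cells. A single Lgr5hi array, Lgr5hi Ki67low replicate 1, reached the level of the Lgr5med arrays. No membrane peptidase of the 6 passed. The nearest was Anpep, aminopeptidase N, at -0.37 ± 0.10 (adjusted p = 0.0566), which read 11.16 and 11.15 in Lgr5hi Ki67hi cells, 11.47 and 11.07 in Lgr5hi Ki67low cells, 11.46, 11.61, 11.26 and 11.44 in Lgr5med Ki67hi cells, and 11.64 and 11.79 in Lgr5med Ki67low cells. Here too Lgr5hi Ki67low replicate 1 overlapped the Lgr5med arrays. Enpep (aminopeptidase A) and the meprin beta subunit Mep1b differed by -0.54 ± 0.18 and -0.59 ± 0.30 (adjusted p = 0.109 and 0.317), and angiotensin-converting enzyme, Ace, by -0.26 ± 0.28 (adjusted p = 0.676).

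In the microvillus itself, 2 of 8 members passed. Cdhr5, one of the cadherins of the links between microvilli, read 9.21 and 9.30 in Lgr5hi Ki67hi cells, 9.30 and 9.07 in Lgr5hi Ki67low cells, 9.73, 9.57, 9.55 and 9.55 in Lgr5med Ki67hi cells, and 10.10 and 10.03 in Lgr5med Ki67low cells. All 4 Lgr5hi arrays lay below every Lgr5med array, and Lgr5med Ki67low arrays were the highest, with a difference of -0.61 ± 0.072 over both Ki67 levels (adjusted p = 0.00231). Myo1a, the motor that ties the actin bundle to the membrane, read 9.37 and 9.28 in Lgr5hi Ki67hi cells, 9.34 and 9.03 in Lgr5hi Ki67low cells, 9.65, 9.63, 9.58 and 9.51 in Lgr5med Ki67hi cells, and 9.69 and 9.69 in Lgr5med Ki67low cells. Its difference was smaller, -0.39 ± 0.074, and its arrays did not overlap (adjusted p = 0.0153). The partner cadherin Cdhr2 differed by -0.48 ± 0.14 and the actin bundlers Vil1 and Espn by -0.21 ± 0.066 and -0.38 ± 0.13, with adjusted p of 0.0769, 0.0975 and 0.117. Harmonin, Ush1c, which anchors the tip links, differed by -0.18 ± 0.059 (adjusted p = 0.106). Krt20, the keratin of mature surface cells, differed by -0.73 ± 0.24 and did not pass (adjusted p = 0.121); it read 9.08 and 8.92 in Lgr5hi Ki67hi cells, 9.09 and 8.52 in Lgr5hi Ki67low cells, 9.96, 9.23, 8.69 and 9.79 in Lgr5med Ki67hi cells, and 9.61 and 10.07 in Lgr5med Ki67low cells. Lgr5med Ki67hi replicate 3 lay among the Lgr5hi arrays.

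**Figure D2:**
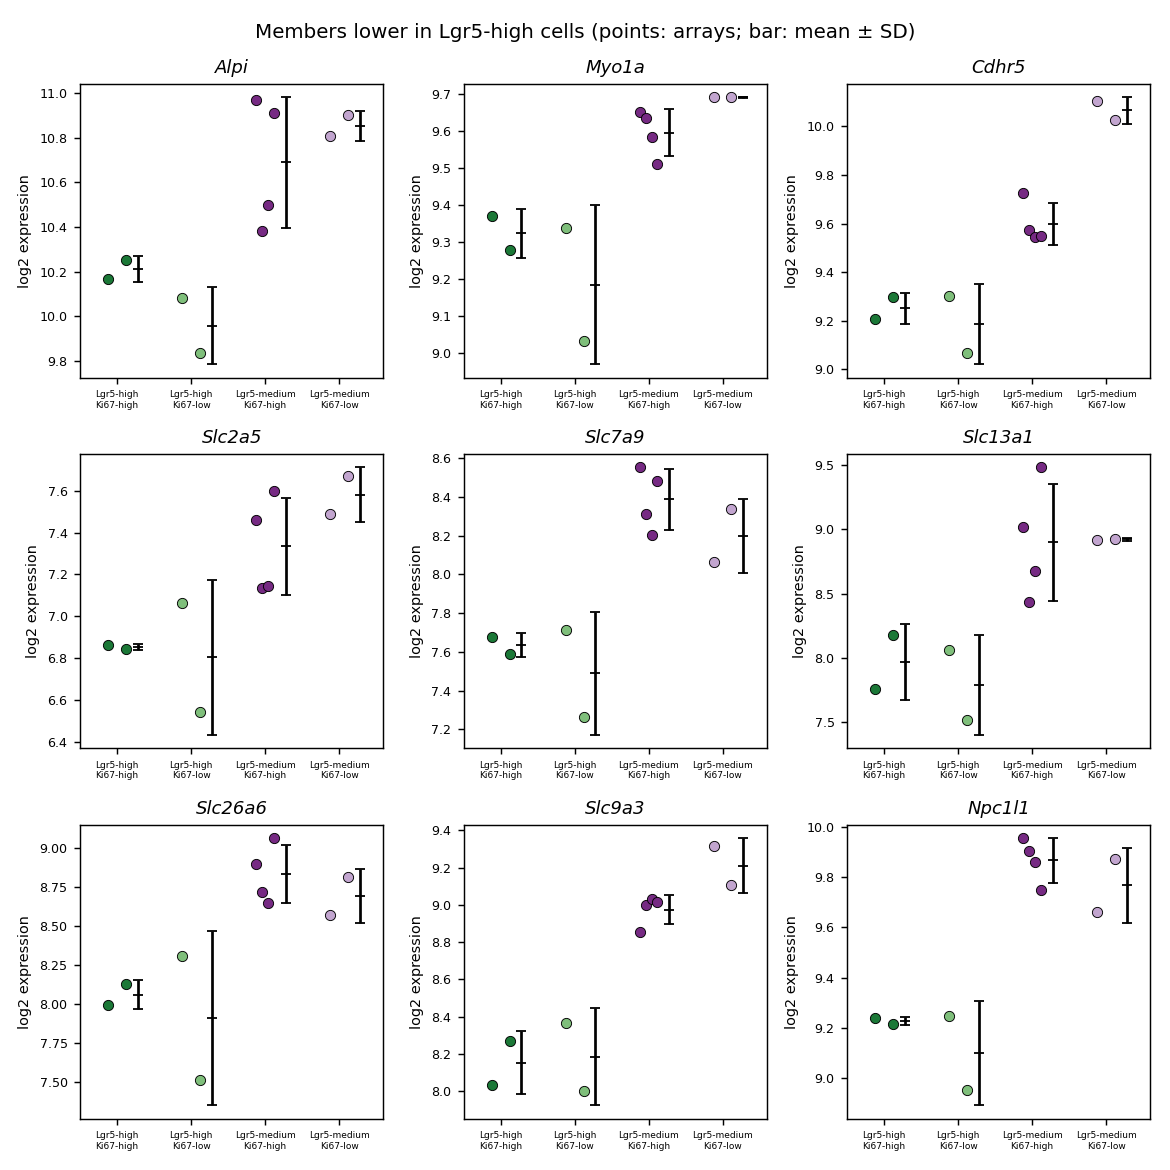
Log2 expression of the 9 members lower in Lgr5hi cells, 1 point per array by sort group (2, 2, 4 and 2 arrays) with bars for the mean and SD; each panel has its own axis, which does not start at 0. In each panel the 4 Lgr5hi arrays lie below the 6 Lgr5med arrays.

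The 5 members without a lower value in Lgr5hi cells were Mep1a (0.31 ± 0.15), Eps8 (0.18 ± 0.12), Myo7b (0.12 ± 0.082), Clca4a (0.09 ± 0.18) and Dpp4 (0.05 ± 0.12), with limma's adjusted p from 0.287 for Mep1a to 0.869 for Dpp4. Mep1a, the meprin alpha subunit, read 6.49 and 6.0 in Lgr5hi Ki67hi cells, 6.86 and 6.84 in Lgr5hi Ki67low cells, 6.29, 6.25, 5.75 and 6.39 in Lgr5med Ki67hi cells, and 6.11 and 6.50 in Lgr5med Ki67low cells. Both Lgr5hi Ki67low arrays were above all others. Eps8, which caps and bundles actin at the microvillus tip, read 8.76 and 8.93 in Lgr5hi Ki67hi cells, 8.61 and 8.77 in Lgr5hi Ki67low cells, 8.82, 8.20, 8.27 and 8.43 in Lgr5med Ki67hi cells, and 8.74 and 8.75 in Lgr5med Ki67low cells. Myo7b, the motor of the tip-link complex, read 9.40 and 9.55 in Lgr5hi Ki67hi cells, 9.67 and 9.88 in Lgr5hi Ki67low cells, 9.43, 9.33, 9.38 and 9.15 in Lgr5med Ki67hi cells, and 9.77 and 9.60 in Lgr5med Ki67low cells. Eps8 and Myo7b belong to the same structure as Cdhr5 and Myo1a, and their values overlapped between the Lgr5 levels. Clca4a, of a family of chloride channel regulators, read 6.60 and 6.74 in Lgr5hi Ki67hi cells, 6.78 and 6.86 in Lgr5hi Ki67low cells, 7.14, 6.30, 6.24 and 7.0 in Lgr5med Ki67hi cells, and 6.49 and 6.78 in Lgr5med Ki67low cells, with the Lgr5hi arrays inside the range of the Lgr5med arrays. A further probe set shared with Clca4b was not used, so the signals of the 2 genes may not be fully separated.

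The comparison was then made at each Ki67 level. In Ki67hi cells (2 against 4 arrays), 3 members were lower in Lgr5hi cells and none higher, where 0.935% of all genes passed in either direction and 0.414% as lower. They were Slc9a3 (-0.82 ± 0.12; adjusted p = 0.0226), Npc1l1 (-0.64 ± 0.11; 0.0309) and Slc7a9 (-0.75 ± 0.15; 0.0465). In Ki67low cells (2 against 2 arrays), 5 were lower and none higher, where 2.84% of all genes passed and 2.18% as lower. These were Slc9a3 (-1.03 ± 0.14; adjusted p = 0.00359), Alpi (-0.89 ± 0.19; 0.0366), Cdhr5 (-0.88 ± 0.11; 0.00195), Npc1l1 (-0.67 ± 0.12; 0.0192) and Myo1a (-0.51 ± 0.11; 0.0437). Slc9a3 and Npc1l1 passed at both levels. The member median was -0.27 in Ki67hi cells, where 25 members were below 0 against 46.9% of all genes, and -0.71 in Ki67low cells, where 29 were, against 42.7%. In Ki67low cells the arrays did not overlap, with Lgr5hi lower, for 27 of 33 members (81.8%), against 19.3% of all genes, and in Ki67hi cells for 15, against 12.9%. The 2 comparisons share no array: 24 members (72.7%) were below 0 in both, against 24.8% of all genes. Pearson's r was 0.49 across the 33 members, which are not independent of each other, and 0.26 across all genes.

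**Figure D3:**
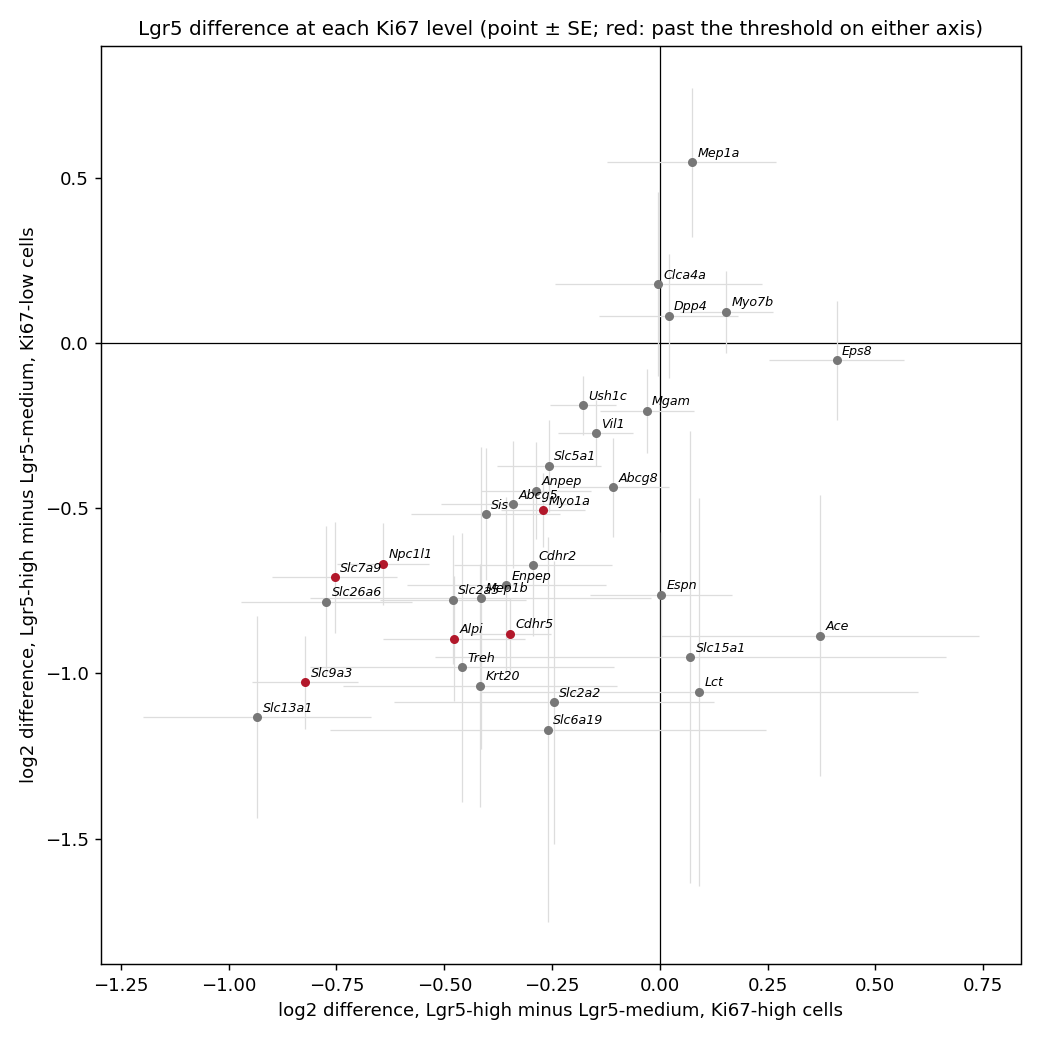
Each point is a brush border gene, with its log2 difference between Lgr5hi and Lgr5med cells in Ki67hi cells (x axis) and in Ki67low cells (y axis) and bars of 1 SE. Slc13a1, Slc9a3, Slc26a6, Slc7a9 and Npc1l1 lie far below 0 on both axes, though Slc13a1 and Slc26a6 passed at neither Ki67 level. Ace, Lct and Slc15a1 lie below 0 in Ki67low cells and above 0, with wide bars, in Ki67hi cells.

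Whether the Lgr5 difference changed with the Ki67 level was tested as an interaction. No member passed, by limma's adjusted p, where 1.04% of all genes did; 3 of 33 members had an unadjusted p below 0.05, against 8.08% of all genes. These were Cdhr5 (-0.53 ± 0.14; adjusted p = 0.204), Espn (-0.76 ± 0.25; 0.369) and Ace (-1.26 ± 0.56; 0.617). A value below 0 means that the Lgr5hi minus Lgr5med difference was lower in Ki67low than in Ki67hi cells. In Ki67hi cells that difference was -0.35 for Cdhr5, 0.0023 for Espn and 0.37 for Ace. Ace, which cleaves angiotensin and other peptides, read 8.72 and 8.60 in Lgr5hi Ki67hi cells, 8.23 and 8.0 in Lgr5hi Ki67low cells, 9.09, 7.90, 7.58 and 8.61 in Lgr5med Ki67hi cells, and 8.62 and 9.38 in Lgr5med Ki67low cells. In Ki67low cells the Lgr5hi pair lay below the Lgr5med pair, and in Ki67hi cells the 4 Lgr5med arrays lay on both sides of the Lgr5hi pair. Of the 33 members, 29 were below 0, against 45.5% of all genes.

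Markers of some other cell types moved with these comparisons. In Ki67low cells, 10 of 10 enteroendocrine markers, 8 of 8 tuft markers and 7 of 7 goblet markers were lower in Lgr5hi cells, with median differences of -2.83, -2.95 and -1.25. In Ki67hi cells none of these passed, where 0.935% of all genes did, and most lay the other way: 10 of 10 enteroendocrine, 8 of 8 tuft and 6 of 7 goblet markers were above 0, with medians of 0.65, 0.39 and 0.14. No Paneth or lymphocyte marker passed at either Ki67 level. In Ki67low cells, 4 of 5 and 7 of 8 were below 0, with medians of -0.79 and -0.52. In Ki67hi cells, 5 of 5 and 6 of 8 were above 0, with medians of 0.58 and 0.46. The summed enteroendocrine level was 12.93 to 12.97 in Lgr5med Ki67low cells and between 9.47 and 10.99 on the other 8 arrays. The summed tuft level was 10.77 to 11.55 there and between 7.55 and 8.77 elsewhere. The summed goblet level was 14.82 to 14.96 there and between 13.63 and 14.09 elsewhere. No array value is 0 on this scale, so a level above 0 does not show that a marker was expressed. The part of these cell types in the members' differences at either Ki67 level was not tested. Of 9 stem cell markers, 8 passed as higher in Lgr5hi cells over both Ki67 levels, where 452 of all 18820 genes did. Lgr5 is among the 8, and its call follows from the sort.

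The Ki67 comparison asked whether the members differed between cells with low and high Ki67 sorted at the same Lgr5 gate. The gate did not match Lgr5 itself: within Lgr5med cells, Lgr5 and Slc12a2 passed as higher in Ki67low cells. All 9 stem cell markers were above 0 there and in Lgr5hi cells, where none passed. In Lgr5med cells (2 against 4 arrays), 2 members were higher in Ki67low cells and none lower, where 3.58% of all genes passed in either direction and 2.65% as higher, so the members' share, 2 of 33 (6.06%), was not far from that of all genes. Both belong to the microvillus. Espn, the actin bundler espin, read 5.07 and 5.0 in Lgr5hi Ki67hi cells, 4.89 and 5.14 in Lgr5hi Ki67low cells, 5.27, 4.78, 4.81 and 5.25 in Lgr5med Ki67hi cells, and 5.62 and 5.93 in Lgr5med Ki67low cells. Both Lgr5med Ki67low arrays lay above the other 8, by 0.75 ± 0.17 over Lgr5med Ki67hi cells (adjusted p = 0.0365). Cdhr5, with its values above, was higher by 0.47 ± 0.094 (adjusted p = 0.0237). Of the members, 28 were above 0 and 5 below, against 55.4% of all genes below 0, with a median of 0.20 against -0.02 for all genes. The arrays did not overlap, with Ki67low higher, for 9 members, against 10.5% of all genes: Espn, Cdhr5, Vil1, Myo1a, Myo7b, Ush1c, Mgam, Anpep and Slc9a3, of which 6 are microvillus structure. A second Ush1c probe set, with a lower level, was not used. It read 3.65 and 3.40 in Lgr5med Ki67low cells and 3.61, 3.63, 3.88 and 3.37 in Lgr5med Ki67hi cells, which overlap. Here too the enteroendocrine (10 of 10), tuft (8 of 8) and goblet (6 of 7) markers were higher in Ki67low cells. All 5 Paneth markers were above 0, with a median of 1.06, and 1 passed, Ang4. All 8 lymphocyte markers were above 0, with a median of 0.59, and none passed. The part of these and of the stem cell markers was not tested.

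In Lgr5hi cells (2 against 2 arrays) no member passed between Ki67low and Ki67hi, where limma called 1 gene of 18820 (0.00531%). At an unadjusted p below 0.05 there were 2 of 33 members, against 4.53% of all genes, both higher in Ki67low cells: Mep1a at 0.61 ± 0.23 and Myo7b at 0.30 ± 0.12. The member median was -0.12 and 23 were below 0, against 52.0% of all genes. Arrays did not overlap, with Ki67low lower, for Alpi, Lct, Treh, Ace, Slc15a1 and Slc6a19 (6 members, against 20.2% of all genes), and with Ki67low higher for Mep1a, Vil1, Myo7b and Clca4a (4 members, against 18.2%). Over both Lgr5 levels no member passed, where 1.24% of all genes did, and 5 of 33 had an unadjusted p below 0.05, against 11.9% of all genes, with Myo7b at 0.33 ± 0.082 (adjusted p = 0.106) the smallest. The comparisons at the Lgr5 levels share no array, and 19 members were below 0 in Lgr5hi and above 0 in Lgr5med cells, as were 21.6% of all genes (57.6% of the members), with r = -0.33 across the members and 0.035 across all genes.

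**Figure D4:**
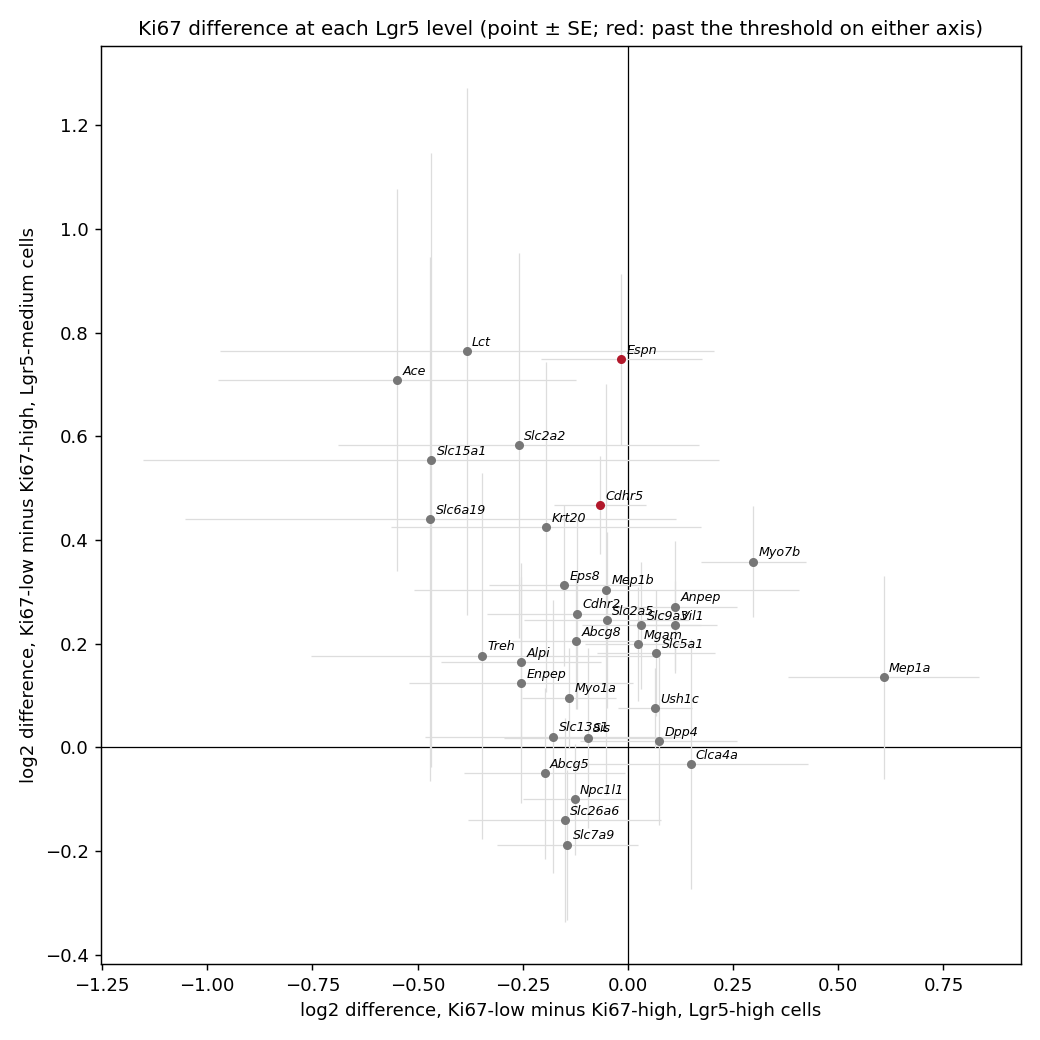
Each point is a brush border gene, with its log2 difference between Ki67low and Ki67hi cells in Lgr5hi cells (x axis) and in Lgr5med cells (y axis) and bars of 1 SE. Espn and Cdhr5 are the members past the threshold, both in Lgr5med cells; Mep1a and Myo7b are the farthest to the right.

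Members differed in how much replicate arrays of a group spread. The SD between arrays of 1 group, pooled over the 4 groups, had a median of 0.22 for the members and 0.13 for all genes. It was highest for the peptide transporter Slc15a1 (0.87), Lct (0.75), Slc6a19 (0.74) and Mep1b (0.58), and lowest for Ush1c (0.053), Vil1 (0.079), Cdhr5 (0.097) and Myo1a (0.10). The microvillus genes had a median SD of 0.11 and the transporters of peptides and amino acids one of 0.74. Slc15a1 shows the pattern: it read 7.60 and 7.53 in Lgr5hi Ki67hi cells, 7.46 and 6.74 in Lgr5hi Ki67low cells, 8.48, 6.92, 6.20 and 8.37 in Lgr5med Ki67hi cells, and 7.51 and 8.58 in Lgr5med Ki67low cells. The 4 Lgr5med Ki67hi arrays ran from the lowest to nearly the highest value of all 10. Lct read 8.65 and 8.53 in Lgr5hi Ki67hi cells, 8.46 and 7.96 in Lgr5hi Ki67low cells, 9.34, 8.07, 7.36 and 9.23 in Lgr5med Ki67hi cells, and 8.77 and 9.76 in Lgr5med Ki67low cells, and here also Lgr5med Ki67hi replicates 1 and 4 were high and replicates 2 and 3 low. Treh read 5.90 and 6.05 in Lgr5hi Ki67hi cells, 5.72 and 5.54 in Lgr5hi Ki67low cells, 6.97, 6.02, 5.72 and 7.03 in Lgr5med Ki67hi cells, and 6.27 and 6.95 in Lgr5med Ki67low cells, with replicates 1 and 4 again high. Slc6a19 read 6.99 and 6.91 in Lgr5hi Ki67hi cells, 6.77 and 6.19 in Lgr5hi Ki67low cells, 7.89, 6.56, 6.21 and 8.19 in Lgr5med Ki67hi cells, and 7.26 and 8.04 in Lgr5med Ki67low cells. In each of these 4 genes the Lgr5hi Ki67hi pair lay close together and the Lgr5med Ki67hi arrays lay on both sides of it. Vil1, at the other end, read 10.45 and 10.44 in Lgr5hi Ki67hi cells, 10.56 and 10.54 in Lgr5hi Ki67low cells, 10.70, 10.58, 10.61 and 10.47 in Lgr5med Ki67hi cells, and 10.76 and 10.89 in Lgr5med Ki67low cells. Its replicates lay within 0.23 units of each other in the widest group.

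The same arrays were high across the list. In Lgr5med Ki67hi cells, 32 of 33 members were above their group mean on replicate 1, 24 on replicate 4, 8 on replicate 2 and 5 on replicate 3. Over all probe sets, replicate 4 of this group correlated least with the other arrays (mean r = 0.986, against 0.989 to 0.992 for the rest). In Lgr5med Ki67low cells, 28 members were higher on replicate 2, and in Lgr5hi Ki67low cells 29 were higher on replicate 1. The Lgr5hi Ki67hi arrays were split, at 19 and 14. In Lgr5med Ki67hi cells, some other lists moved with these arrays. All 6 lipid absorption genes were above their group mean on Lgr5med Ki67hi replicates 1 and 4, and 1 and 0 on replicates 2 and 3. For 8 lymphocyte markers the counts on replicates 1 to 4 were 7, 0, 0 and 8, with a summed level of 7.40 to 8.83 in that group, and for 8 tuft markers they were 6, 0, 0 and 8. On Lgr5med Ki67low replicate 2, all 6 lipid absorption, 8 of 8 lymphocyte and 8 of 8 tuft markers were above their group mean. On Lgr5hi Ki67low replicate 1 the counts were 6 of 6, 3 of 8 and 1 of 8. Goblet markers went the other way on both, with 1 of 7 above on each. Of 10 enteroendocrine markers, 10, 2, 0 and 10 were above on Lgr5med Ki67hi replicates 1 to 4. On Lgr5med Ki67low replicate 2 and Lgr5hi Ki67low replicate 1, 6 and 3 were. For 20 enterocyte transcription factors the counts were 12, 15, 16 and 4, then 7 and 5 on the same arrays. Of 9 stem cell markers, 2 were above on Lgr5med Ki67low replicate 2 and 0 on Lgr5hi Ki67low replicate 1. Whether these lists play a part in the spread of the members was not tested.

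**Figure D5:**
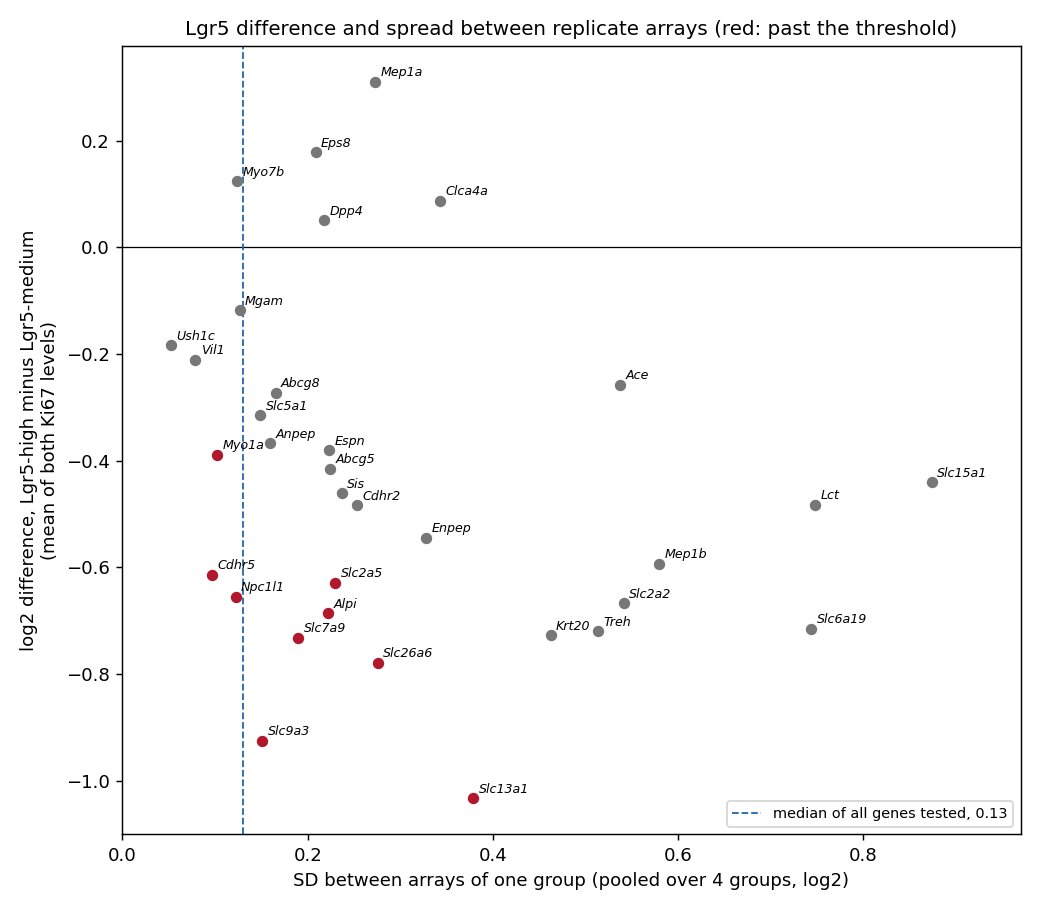
Each point is a brush border gene, with the pooled SD between arrays of 1 group (x axis, log2) and the log2 difference between Lgr5hi and Lgr5med cells over both Ki67 levels (y axis); the dashed line is the median SD of all genes. Slc6a19, Treh and Krt20 have differences within the range of the 9 genes past the threshold, and larger SDs.

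The members followed 1 profile over the arrays to different degrees. Each member's level was correlated over the 10 arrays with the mean deviation of the other members, as a description of 10 arrays that share their sort groups. Krt20 (Pearson r = 0.99) and Cdhr2 (0.99) followed it most closely. Cdhr2 read 9.04 and 9.04 in Lgr5hi Ki67hi cells, 9.06 and 8.77 in Lgr5hi Ki67low cells, 9.56, 9.26, 8.96 and 9.56 in Lgr5med Ki67hi cells, and 9.37 and 9.81 in Lgr5med Ki67low cells, lowest on Lgr5hi Ki67low replicate 2 and highest on Lgr5med Ki67low replicate 2. For Slc5a1, Slc2a2 and Treh r was above 0.94. Myo7b (-0.32), Mep1a (-0.085) and Eps8 (0.079) followed it least. Outside the list, among genes above the median level, the 5 most like the members' mean profile were Clec2h, Pls1, Fmo5, Naip2 and H2-Q1, with r from 0.97 to 0.98. Pls1 encodes an actin bundler of the microvillus. The members' mean deviation was -0.45 on Lgr5hi Ki67low replicate 2, the lowest array, and 0.46 on Lgr5med Ki67low replicate 2, the highest. Lgr5med Ki67hi replicate 3, at -0.27, was below 3 of the 4 Lgr5hi arrays.

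Genes of the same system outside the list were set beside the members, in the Lgr5 comparison over both Ki67 levels. Of 31 further absorptive transporters, 8 were lower in Lgr5hi cells and none higher, against 3.52% of all genes, and 30 were below 0, against 43.7% of all genes, with a median of -0.38. The 4 with the smallest p were Slc3a2, the heavy chain of several amino acid transporters (-0.35 ± 0.065; adjusted p = 0.0140), the bile acid exporter subunit Slc51a (-0.75 ± 0.16; 0.0226), the iron exporter Slc40a1 (-0.92 ± 0.20; 0.0237) and the glucose-phosphate transporter Slc37a4 (-0.34 ± 0.075; 0.0283). Of 13 further brush border enzymes none passed, with 12 below 0 and a median of -0.44. Of 22 further microvillus and scaffold genes, 20 were below 0, with a median of -0.14, and 2 were lower: Anks4b, a partner of harmonin in the tip-link complex (-0.35 ± 0.059; adjusted p = 0.00993), and Slc9a3r1, the scaffold that holds the Slc9a3 exchanger (-0.33 ± 0.072; 0.0248). The 20 transcription factors of enterocytes went both ways, with 11 below 0 and 9 above, a median of -0.04 and a highest value of 0.46. Among them 4 were lower and none higher: Creb3l3 (-0.78 ± 0.14; 0.0121), Maf (-0.61 ± 0.11; 0.0144), the bile acid receptor Nr1h4 (-0.40 ± 0.088; 0.0296) and Klf4 (-0.58 ± 0.15; 0.0489). In the Ki67 comparison of Lgr5med cells, Klf4 was higher in Ki67low cells (0.85 ± 0.19; adjusted p = 0.0419) and so was the keratin Krt18 (0.70 ± 0.081; 0.00103).

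Counts of calls changed when single arrays were left out, over the members and over all genes. Over both Ki67 levels, the 9 members lower in Lgr5hi cells became 4 without Lgr5hi Ki67hi replicate 1, 4 without its replicate 2, 5 without Lgr5hi Ki67low replicate 2, and 6 without Lgr5med Ki67low replicate 2. Calls over all genes, in either direction, went from 1115 to 384, 360, 359 and 696 in the same settings. Cdhr5, Slc7a9, Slc9a3 and Npc1l1 were among the calls in each of these. Without Lgr5med Ki67hi replicate 4 the count was 10, with 1708 over all genes, and without its replicate 3 it was 13, with 1034. Over every alternative run, the differences of called members stayed below 0: that of Slc9a3 ranged from -1.02 to -0.83, that of Slc13a1 from -1.17 to -0.90, and that of Slc26a6, with the widest relative range of the 9, from -0.98 to -0.58.

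In Ki67low cells, the 5 calls became 2 without Lgr5hi Ki67low replicate 2, with the median moving from -0.71 to -0.39, and 2 without Lgr5med Ki67low replicate 2, while calls over all genes went from 534 to 198 and 415. They became 3 without Lgr5med Ki67low replicate 1 (271 over all genes) or either Lgr5hi Ki67hi array (372 in each case), 8 without Lgr5hi Ki67low replicate 1 (341) and 9 without Lgr5med Ki67hi replicate 4 (921). In Ki67hi cells, the count of 3 became 0 without Lgr5hi Ki67hi replicate 1 or 2 and without Lgr5med Ki67hi replicate 2 or 3, where calls over all genes went from 176 to 0, 4, 27 and 44, and 1 without Lgr5med Ki67hi replicate 1 (163). Over every alternative run, the difference in Ki67hi cells ranged from -0.94 to -0.70 for Slc9a3, from -0.72 to -0.56 for Npc1l1 and from -0.83 to -0.70 for Slc7a9. The 2 Ki67 calls in Lgr5med cells became 1 without each of the 4 Lgr5hi arrays, where calls over all genes went from 674 to between 503 and 577. They became 0 without Lgr5med Ki67hi replicate 2 or 3 or Lgr5med Ki67low replicate 1 or 2, with 456, 532, 264 and 559 over all genes. Fewer arrays also leave less precision, and this and the part of any single array cannot be told apart here.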

How the data were processed

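Expression was read on Affymetrix gene-level arrays, per the labels, and MAS5 and GCOS are listed without version or role, per the submitters' processing notes. The authors deposited 1 normalized value per probe set and array, taken here as log2 from their range (1.16 to 13.8); no source used here names the normalization or the genome build. Of 35556 probe sets, 21218 had a single gene symbol in the platform annotation of 2016, 1881 had several and 12457 had none; 21185 matched a current gene by identifier, with no symbol changed. The probe set with the highest mean stood for each of 18820 genes, 1386 of which had several. A mean was fitted per group over all 10 arrays (6 residual degrees of freedom), and 7 comparisons were tested with limma 3.58.1 in R 4.3.3, with eBayes and Benjamini-Hochberg adjustment over all genes at 0.05 within each comparison. The fit was tested on simulated data for the Ki67 comparison in Lgr5med cells only. It recovered 22, 43, 49 and 50 of 50 genes changed by 0.5, 1, 2 and 3 log2 units. It also called 12 unchanged genes. Many true differences near 0.5 units can thus be missed. Alternatives were quantile normalization, centring, a 30% filter on dim genes, averaged probe sets, every row tested, only the groups compared, array weights, a trended prior, a replicate block and leaving out each array. Summed levels are log2 of the sum of linear values. The members and lists were chosen with earlier results of these data known. All measured members were named by role; those past the threshold, and the member of each role group with the smallest p, are given on every array, as are examples of wide spread and members not lower in Lgr5hi cells, chosen after their values were seen. Of other lists, up to 4 genes with the smallest p among those past the threshold were named, and for likeness the 5 highest correlations.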

Additional observations from a re-analysis of the deposited data

Results flagged for a closer look

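Among the 33 members, 1 stood apart within the group of 4 arrays, Lgr5med Ki67hi. Cdhr5 read 9.73 on replicate 1, and its gap to the next array was 0.855 of the range of the group, above Dixon's 95% critical value for 4 values. Chance alone passes this value in about 1 of 20 groups, and 33 were checked.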

How the results depend on the processing

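No call of a member reversed: of 352 repeats of 19 single calls, 260 kept their side of the threshold and the others lost it. The 6 that held in every alternative were Cdhr5 and Slc9a3 in Ki67low cells and Cdhr5, Slc7a9, Slc9a3 and Npc1l1 over both Ki67 levels. Of the medians, 129 of 130 moved by less than 1 SD (0.222) of the members' median between arrays. Numbers of members called were as follows, each with the calls over all genes in brackets (without changes: 176 between Lgr5 levels in Ki67hi cells, 534 in Ki67low cells, 1115 over both, and 674 between Ki67 levels in Lgr5med cells) and with the cause of each change not tested. With array weights, 5 (1135) were called between Lgr5 levels in Ki67hi cells, 9 (803) in Ki67low cells and 14 (1975) over both, and 1 (530) between Ki67 levels over both Lgr5 levels. Lgr5med Ki67hi replicate 4 had the lowest weight, 0.29, and the others lay between 0.88 and 1.62. With arrays centred, 3 (581) were called between Lgr5 levels in Ki67low cells and 1 (1184) between Ki67 levels in Lgr5med cells. With quantile normalization, 1 (170) was called between Lgr5 levels in Ki67hi cells and 1 (618) between Ki67 levels in Lgr5med cells. With every row tested, the counts were 0 (7) in Ki67hi cells, 2 (268) in Ki67low cells, 6 (521) over both and 0 (398) between Ki67 levels in Lgr5med cells. With only the groups compared, they were 3 (274) in Ki67low cells and 0 (373) between Ki67 levels in Lgr5med cells. Without single arrays, the counts ranged from 4 to 13 for Lgr5 over both Ki67 levels, from 0 to 4 in Ki67hi cells, from 2 to 9 in Ki67low cells and from 0 to 2 for Ki67 in Lgr5med cells; they stayed at 0 for Ki67 in Lgr5hi cells, for Ki67 over both Lgr5 levels and for the interaction. The member median in Ki67low cells ranged from -0.87 to -0.39. Same-numbered arrays did not deviate together (r from -0.30 to 0.013), so the numbers were not taken as pairs; with the replicate block, 0 members (6) were called between Lgr5 levels in Ki67hi cells, 0 (352) between Ki67 levels in Lgr5med cells and 9 (747) between Lgr5 levels over both Ki67 levels. In the Ki67low groups, r was -0.30 for same-numbered and 0.30 for differently numbered arrays, which with 2 arrays per group is 1 quantity with its sign changed. A crossed pairing, chosen after seeing this, called 23 members, 22 lower and 1 higher (Mep1a), and 1238 of 18820 genes. It joins the arrays on which 29 and 28 of the 33 members were above their group mean. That choice itself lowers the members' residual spread, so the count of 23 is no check of the calls. Groups of 2 arrays limit the precision of each value.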
